A study of Mus musculus with 2197 samples.

Results

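Sst, which encodes somatostatin, and Hhex, which encodes a homeodomain transcription factor, were followed in every sorted cell of the embryonic mouse pancreas and in droplet libraries of the whole organ. They were chosen by name, as 2 of the 40824 genes in the Smart-seq2 count table, and no measured value entered the choice. Smart-seq2 gave 1 full-length cDNA library per cell for 2195 cells in 29 groups and 82 sets. Titles carry a set number before that of the cell, and the labels do not say whether a set stands for an embryo, a litter or a plate.

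The sorts differed in the reporter that marked the cells. Pdx1-GFP transgenic embryos gave GFP+ progenitor cells at E9.5, E10.5 and E11.5, with a brighter Pdx1-GFPhigh fraction at E10.5. Pdx1-Cre; Rosa-RFP embryos, in which descendants of Pdx1-expressing cells keep RFP, were sampled daily, the first at E10.5 and the last at E15.5. An Ngn3-GFP knock-in, which reports the endocrine fate gene Neurog3 and leaves GFP protein in its recent descendants, gave Ngn3-GFPhigh and Ngn3-GFPlow cells on 3 days, E13.5, E14.5 and then E15.5. At E10.5, E12.5, E16.5 and E17.5 Ngn3-GFP+ cells were taken without that split. Ins1-RFP+ and Gcg-P2A-GFP+ cells marked beta and alpha cells at E15.5, with 1 further Gcg-GFP+ set at E17.5. Sox9-CreER; Rosa-RFP+ cells marked the duct lineage at E16.5 and E17.5, and Ptf1a-CreER; Rosa-RFP+ and Ngn3-Cre; Rosa-RFP+ cells were taken at E11.5. Explants were dorsal pancreata taken at E13.0 from Ins1-RFP mice and kept in culture for 2 days, 3 to a membrane, with 10 µM of the MEK1 and MEK2 inhibitor U0126 or without it. The labels give no other allele or agent, and no dose or day of induction for the CreER lines.

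The cells held 176524 to 2118160 counts (median 809389) over 4339 to 12149 genes. Levels are counts per 1000000 gene counts (CPM), without the ERCC spike-in rows, either in 1 cell or after the counts of a set were summed. The reporters matched their genes where this could be checked: all Gcg-GFP+ cells had at least 100 CPM of Gcg and all Ins1-RFP+ cells at least 100 CPM of Ins1. Neurog3 reached 100 CPM in 71.4% of Ngn3-GFPhigh cells at E13.5, but in 13.8% and 8.80% of Ngn3-GFP+ cells at E16.5 and E17.5. Sox9 reached 100 CPM in 58.2% of the E16.5 Sox9-CreER cells and in 100% of the E17.5 ones, and Ptf1a in 17.7% of Ptf1a-CreER cells. In all, 178 cells carried at least 4 markers at 100 CPM of a type outside the pancreatic epithelium, mostly leukocytes. They stayed in the main values, and levels without them are given beside the Hhex results they touch.

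Somatostatin is the peptide hormone of the islet's delta cells, and it acts on neighbouring alpha and beta cells to hold back glucagon and insulin release. The prohormone is cut by proprotein convertases, and the released peptide binds G protein-coupled receptors of the Sstr family. Hhex acts early in the foregut, where it is needed for the ventral pancreas and the liver bud, and later in the islet, where it is known as a factor that delta cells need to keep their identity. It represses its targets with the Groucho co-repressors of the Tle family.

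Sst (ENSMUSG00000004366) lies on the minus strand at chr16:23889573-23890958 and has 2 exons, and Hhex (ENSMUSG00000024986) lies on the plus strand at chr19:37434810-37440731 and has 4 exons (GRCm38, GENCODE). The following windows, from the RefSeq promoters of build GRCm38.p6, are shown because the somatostatin promoter is a textbook CREB target and holds the homeodomain core that islet factors such as Pdx1 bind. Capitals mark the motif match, in chr16:23890874-23890903 and chr16:23890923-23890952 (minus strand) for Sst and chr19:37434710-37434739 (plus strand) for Hhex.
Sst CREB element: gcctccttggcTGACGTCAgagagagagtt
Sst homeodomain core: gattttgcgaggcTAATggtgcgtaaaagc
Hhex CCAAT box: gaagccagcgccATTGGccgcagggcctgg
The palindromic CREB element TGACGTCA began 48 bases before the RefSeq start of Sst, and 1.55% of 32851 RefSeq promoters held it within the 250 bases before the start, on either strand. The homeodomain core TAAT, at 95 bases before the start, was found in 54.9% of promoters, and the E-box letters CANNTG, at 199 bases, in 66.2%. Hhex held none of these 3 and 1 CCAAT box (its reverse complement ATTGG is shown), which 33.8% of promoters share and Sst lacked. Neither window held TATAAA, found in 12.4% of promoters. The window of Sst was 47.2% G or C and that of Hhex 76.0%. These matches are letters in a window, and the RefSeq start of Sst lies inside the longer GENCODE gene.

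Sst was high in few groups, and above 100 CPM in every set of only 1 of them, the Ngn3-GFP+ cells of E17.5. There the 4 sets held 2603, 6277, 1875 and 189 CPM (mean 2736 ± 2568 SD). At E16.5 the sets held 1216, 28.8, 1.13 and 1480 CPM (682 ± 777 SD, n = 4). At E16.5 2 of 4 sets were above 100 CPM, and the ranges of the 2 days overlap.

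Next came Pdx1-Cre; Rosa-RFP+ cells of E15.5, where 1 of 3 sets held 1547 CPM and the others 0 and 0.466 CPM. Ngn3-GFPhigh cells of E14.5 held 0, 844 and 43.6 CPM over their 3 sets. In both groups a single set carried nearly the whole mean, so that neither could be placed above or below the other or the E16.5 group beyond the spread. No other group mean passed 100 CPM, and 18 of the 82 sets had no Sst count at all. Sst was listed at 0 in all 27 Pdx1-GFPhigh cells of E10.5, and stayed at or below 0.831 CPM in the 5 Ngn3-GFPlow sets of E14.5.

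Early Ngn3-GFP+ sets, from the days of the first wave of endocrine differentiation, held 25585 ± 8465 CPM of Gcg (SD over 6 sets). Their cells were mixed. The median cell held 25.5 CPM of Gcg in set 3 of E12.5 and 32307 CPM in set 2 of E10.5, the lowest and highest medians. Leukocyte markers were carried by 13 of 62 cells at E10.5 and 38 of 121 at E12.5. Sst in these sets is therefore not a level of endocrine cells alone. It was low: 0.0445, 50.8 and 7.41 CPM at E10.5 and 0.163, 0.0730 and 0.776 CPM at E12.5. Reporter-sorted beta and alpha cells of E15.5 were low too, at 18.5 and 1.19 CPM (Ins1-RFP+) and 0.173 and 0 CPM (Gcg-GFP+). Per kilobase of the gene lengths in the deposited table, 599 bases for Sst and 1802 for Hhex, the mean level at E17.5 was 4568 CPM for Sst and 87.1 CPM for Hhex in the same Ngn3-GFP+ sets.

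**Figure D1:**
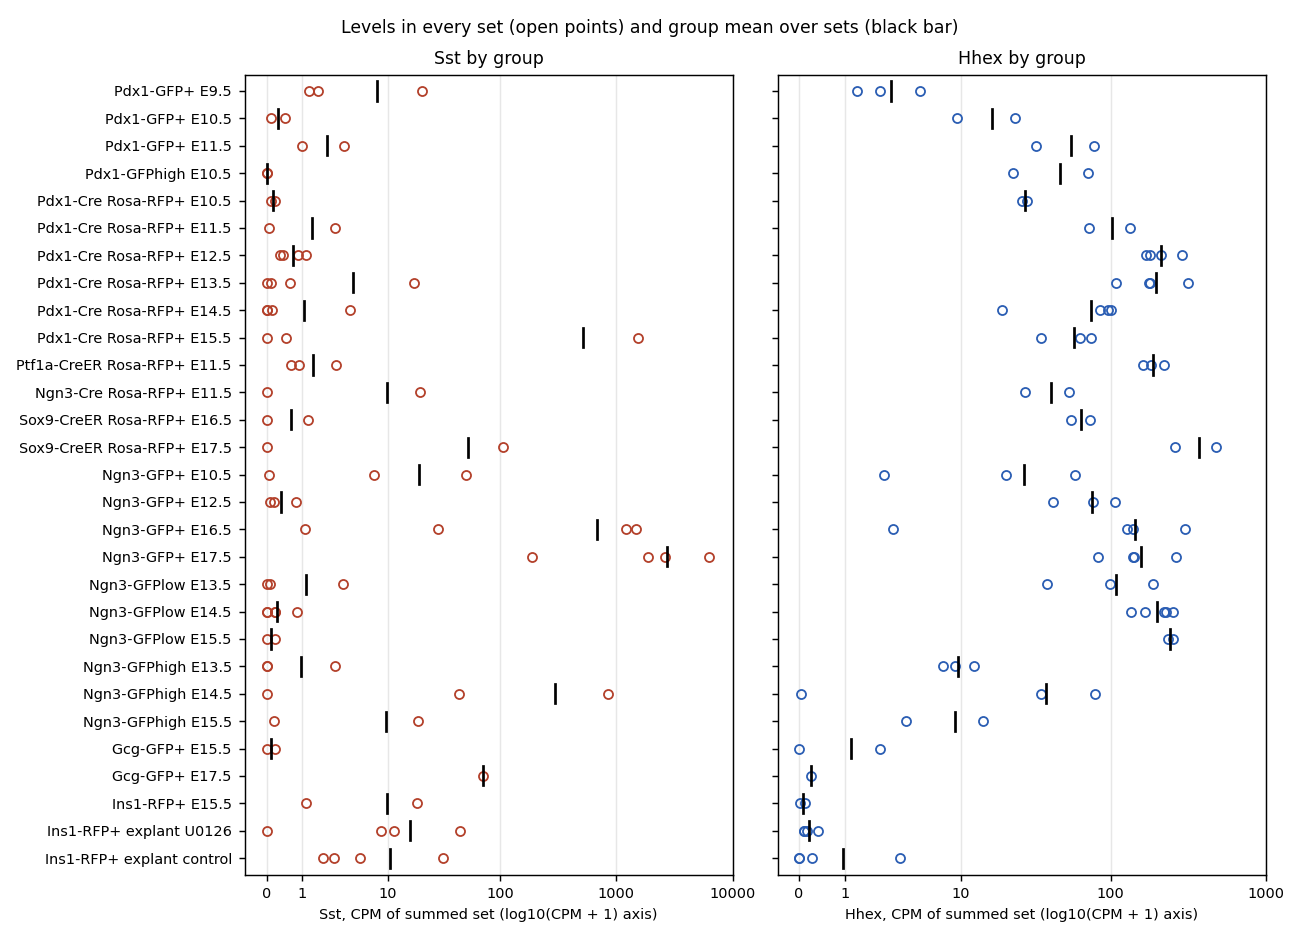
Sst (left) and Hhex (right) in every group of sorted cells, as CPM of the summed counts of a set on a log10(CPM + 1) axis. Open points are sets and black bars the mean over sets. Sst passes 1000 CPM in sets of 3 groups only, whereas the group mean of Hhex passes 100 CPM in 10 groups and is below 4 CPM in the alpha, beta and explant groups.

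Sst counts came almost wholly from 20 cells. Of 2195 cells, 491 had at least 1 Sst count, 55 reached 100 CPM, 20 reached 1000 CPM and 13 reached 10000 CPM. The 20 cells above 1000 CPM held 97.9% of all Sst counts, and their Sst ranged from 1823 to 70452 CPM (median 20180). They were 14 of 125 Ngn3-GFP+ cells of E17.5, 3 of 130 of E16.5, 2 of 108 Ngn3-GFPhigh cells of E14.5 and 1 of 79 Pdx1-Cre; Rosa-RFP+ cells of E15.5. They came from 9 sets, 5 of which gave more than 1 of them. The summed level of a set therefore rested on the few such cells it held.

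A low level of Sst also ran through whole sets. In 4 sets every cell had at least 1 CPM of Sst, and in 7 sets more than 70% did. The clearest was set 2 of the Sox9-CreER; Rosa-RFP+ cells of E17.5, where all 24 cells held 53 to 171 CPM (median 108) and none was near 1000 CPM. Set 1 of the same group held none.

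In set 1 of Ngn3-GFP+ E16.5 all 37 cells held at least 16.8 CPM (median 34.2), and this set also held cells above 1000 CPM. Among the explants, set 3 with U0126 (20 of 20 cells, median 37.2 CPM) and set 3 without it (18 of 18 cells, median 27.9 CPM) shared the pattern and the set number. In the same 4 sets 83.3% or more of the cells had 1 CPM of Pyy, another islet peptide. This was not particular to them: over the 18 sets without an Sst count that share ran from 3.23% to 100%. The source of these low levels was not tested. A threshold of 100 CPM still took in 17 cells of the Sox9-CreER set, so single cells are described below at 1000 CPM and compared only within sets.

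**Figure D2:**
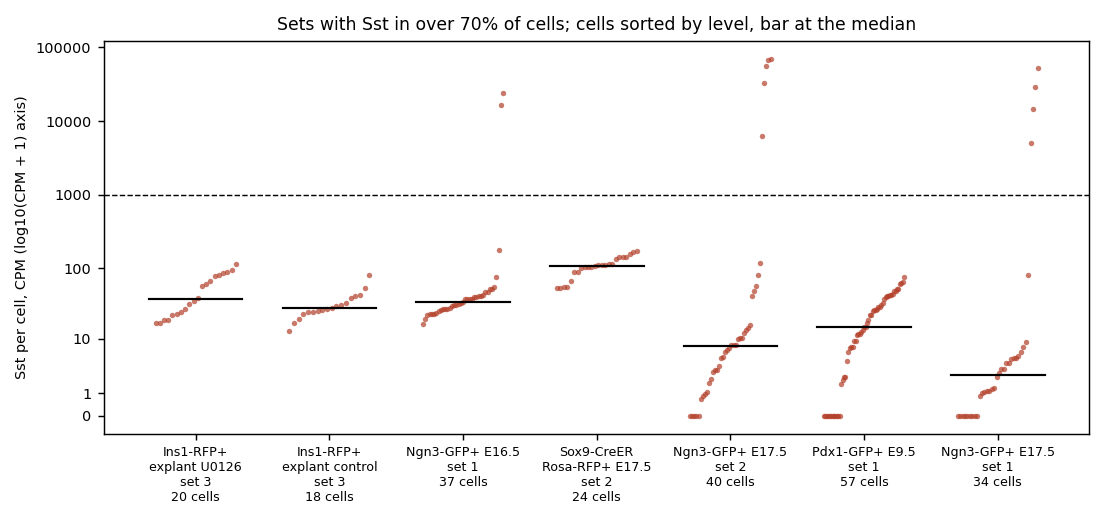
Sst per cell (CPM, log10(CPM + 1) axis) in the 7 sets where more than 70% of cells had at least 1 CPM. Points are cells in order of level, black bars the medians and the dashed line 1000 CPM. In the Sox9-CreER set all cells lie between 53 and 171 CPM, while in the E17.5 Ngn3-GFP+ sets a few cells stand far above the rest.

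Hhex had a wider and more even pattern than Sst. It was found in 965 cells, with 826 at 10 CPM and 531 at 100 CPM, and its highest cell held 4325 CPM. The highest group was Sox9-CreER; Rosa-RFP+ of E17.5, with 262 and 477 CPM in its sets, where all 34 cells passed 10 CPM. The Ngn3-GFPlow cells of E15.5 followed with 253 and 233 CPM, just below the lower of those sets.

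Pdx1-Cre; Rosa-RFP+ cells of E12.5 held 178, 211, 169 and 289 CPM (212 ± 54.4 SD), Ngn3-GFPlow cells of E14.5 252, 220, 167, 229 and 135 CPM (200 ± 48.1 SD, n = 5), and Ptf1a-CreER; Rosa-RFP+ cells of E11.5 161, 183 and 221 CPM (189 ± 30.6 SD). These 3 groups overlap and cannot be ordered beyond their spread. In each of them more than 70% of cells had 10 CPM of Hhex. By contrast, 20% of Ngn3-GFP+ cells of E17.5 and 22.3% of those of E16.5 did, although the means of these groups (157 ± 76.0 and 143 ± 123 CPM, SD, n = 4 sets each) were close to the others.

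Hhex was near 0 in sorted hormone cells. Ins1-RFP+ cells of E15.5 held 0.107 and 0.0269 CPM, and none of 39 cells reached 10 CPM, which allows a share of up to 7.69%. Gcg-GFP+ cells of E15.5 held 0 and 2.31 CPM, with 1 of 36 cells at 10 CPM. No explant set passed 3.48 CPM.

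In the youngest Pdx1-GFP+ cells, E9.5, Hhex was 1.39, 4.99 and 2.34 CPM, against 9.43 and 23.7 CPM at E10.5 and 78.2 and 32.4 CPM at E11.5. The ranges of the 3 days did not overlap. In the Pdx1-Cre; Rosa-RFP+ lineage the group mean was 27.3 CPM at E10.5 and 212 CPM at E12.5, and then 195, 74.9 and 57.5 CPM on the 3 days after, E13.5 to E15.5.

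Grouped by marker genes (at least 3 markers of a list at 100 CPM, a cell may fall in more than 1 class), Hhex at 10 CPM was found in 530 of 847 duct and trunk cells (62.6%), 165 of 248 acinar cells (66.5%) and 90 of 360 endocrine progenitor cells (25%). It was found in 83 of 1005 late endocrine precursor cells (8.26%), 48 of 593 beta cells (8.09%) and 33 of 626 alpha cells (5.27%). Leukocyte-marker cells were the class with the highest share, 134 of 153 (87.6%), and liver-marker cells had 25 of 33 (75.8%). None of the leukocyte-marker cells had 100 CPM of Sst.

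Leukocyte-marker cells bore on the early Ngn3-GFP sorts. At E10.5 the 3 Ngn3-GFP+ sets held 58.2, 20.5 and 2.55 CPM of Hhex, and without the 13 cells with such markers (of 62) the mean was 1.88 instead of 27.1 CPM. At E12.5 the sets held 107, 77.0 and 42.1 CPM, and without 39 of 121 cells, 38 of them leukocyte-like, the mean was 54.4 instead of 75.3 CPM. The summed level of the leukocyte list ran from 460 to 2358 CPM over the E10.5 sets, from 1887 to 7658 CPM at E12.5, and from 24.5 to 67.6 CPM at E16.5.

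In Ngn3-GFPlow cells the same step changed the mean from 108 to 97.3 CPM at E13.5 (52 of 118 cells left out), and raised it from 200 to 260 CPM at E14.5 and from 243 to 313 CPM at E15.5. Hhex in Ngn3-GFP+ cells of E16.5 and E17.5 stood at 146 and 159 CPM without them, close to the values with them.

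Differences between groups were tested with edgeR's quasi-likelihood test on summed counts of sets, over all genes that passed the count filter, with Benjamini-Hochberg adjustment. The p-values weigh a difference against how far sets of a group lie apart, and that distance may be technical. In Ngn3-GFP+ cells the late sets (E16.5 and E17.5, n = 8) were compared with the early ones (E10.5 and E12.5, n = 6). Sst was higher late by 9.15 ± 1.98 (log2, SE) with an edgeR adjusted p of 0.00512, in a comparison where 19.7% of 19059 genes were called. Late sets ranged from 1.13 to 6277 CPM and early sets from 0.0445 to 50.8 CPM, so the ranges overlap.

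Hhex did not pass there, at 1.74 ± 0.71 (edgeR adjusted p = 0.0983). Without the cells carrying markers of other types it passed, at 4.01 (edgeR adjusted p = 0.00706), and the early sets then ran up to 92.4 CPM.

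Against Sox9-CreER; Rosa-RFP+ duct-lineage cells of the same days (n = 4 sets), Sst was higher in late Ngn3-GFP+ cells by 7.85 ± 2.29 (edgeR adjusted p = 0.0207, 25% of genes called). Without set 1 or set 2 of the Sox9-CreER cells at E16.5, or set 1 at E17.5, the call was lost, with adjusted p up to 0.114. Hhex gave -0.12 ± 0.76 (edgeR adjusted p = 0.975), from sets of 55 to 477 CPM in the duct lineage and 3.04 to 304 CPM in the Ngn3-GFP+ cells. The share of cells at 10 CPM differed between these groups, 22 of 55 and 34 of 34 duct-lineage cells at E16.5 and E17.5 against 29 of 130 and 25 of 125 Ngn3-GFP+ cells.

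Between the Ngn3-GFP sorts, the difference of Hhex, Ngn3-GFPhigh minus Ngn3-GFPlow, was below 0 on all 3 days, and edgeR passed none of the 3. At E13.5 the high sets held 7.41, 9.09 and 12.3 CPM and the low sets 188, 99 and 38.6 CPM (log2 -3.58 ± 1.19, edgeR adjusted p = 0.0915, 6.22% of genes called). At E14.5 the high sets held 0.0287, 79.0 and 35.1 CPM, all below the 5 low sets (-2.53 ± 1.07, edgeR adjusted p = 0.124, 15% of genes called). At E15.5 the high sets held 14.2 and 3.87 CPM (-4.89 ± 1.55, edgeR adjusted p = 0.0614, 8.98% of genes called). With all cells counted, the sets of the sorts did not overlap on any of the 3 days. DESeq2's Wald test called all 3 differences, and edgeR called that of E14.5 without high set 1 (-1.95, adjusted p = 0.0416).

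The sorts also differed in leukocyte-marker cells, which were 51 of 118, 31 of 104 and 14 of 37 low cells on the 3 days and none of the high cells. Without cells of other types the low sets of E13.5 held 204, 81.8 and 6.38 CPM of Hhex, the last below all 3 high sets, so the sorts overlapped on that day. On the later days the lowest low set then held 162 and 310 CPM, above all high sets. The differences were -3.26, -2.72 and -5.07 (edgeR adjusted p = 0.268, 0.160 and 0.101).

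Sst went the other way at E14.5, higher in Ngn3-GFPhigh cells by 10.3 ± 2.57 (edgeR adjusted p = 0.0147). The call rested on 1 set: without high set 2 the difference was 6.30 (adjusted p = 0.163). Sst gave -0.62 ± 2.38 at E13.5 and 6.58 ± 3.78 at E15.5 (edgeR adjusted p = 0.934 and 0.299).

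Along the Pdx1-Cre; Rosa-RFP+ days, Sst rose by 2.29 ± 0.48 log2 units per day (edgeR adjusted p = 0.00575, 5.34% of genes called). This rested on 1 cell: without set 2 of E15.5, which held the cell at 12443 CPM, the slope was 0.31 (adjusted p = 0.896). Hhex had a slope of -0.11 ± 0.20 (edgeR adjusted p = 0.843), over days of which E12.5 had the highest mean.

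In Pdx1-GFP+ cells the difference of Hhex between E11.5 and E9.5 was 4.31 ± 0.74 (edgeR adjusted p = 0.117, 0.048% of genes called), and DESeq2 and limma called it. Sst gave -1.79 ± 1.51 (edgeR adjusted p = 0.783). At E11.5 the 2 Ngn3-Cre; Rosa-RFP+ sets held 27.3 and 53.8 CPM of Hhex, below the 3 Ptf1a-CreER sets, and the difference was 2.26 ± 0.47 (edgeR adjusted p = 0.0662, 0.783% of genes called). Sst gave -2.72 ± 2.14 there (edgeR adjusted p = 0.523).

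Between Ins1-RFP+ and Gcg-GFP+ cells of E15.5 neither gene passed (Sst 7.11 ± 4.63, edgeR adjusted p = 0.547, and Hhex -4.46 ± 1.76, edgeR adjusted p = 0.319, 0.693% of genes called), and both genes were under 20 CPM in all 4 sets. In explants Sst was 0, 8.63, 44.2 and 11.3 CPM with U0126 and 2.02, 2.79, 31.8 and 5.38 CPM without (log2 0.60 ± 1.21, edgeR adjusted p = 1.00). In that comparison edgeR called 0.0% of 12632 genes, with 436 genes at an unadjusted p under 0.05 and 10 called by DESeq2. By Sst the same-numbered sets stood in the same order with and without U0126, and the test above did not pair them. Hhex was under the count filter in the explants and was not tested.

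Cells with the highest Sst mostly carried Hhex, and those under 100 CPM of Sst mostly did not. Of the 20 cells with at least 1000 CPM of Sst, 17 had at least 100 CPM of Hhex (85.0%, exact binomial interval 62.1 to 96.8%), with 472 to 3425 CPM each. Of the 35 cells with 100 to 1000 CPM of Sst, 19 had it (54.3%), but 17 of these 19 came from the Sox9-CreER set above. In that group of E17.5, 32 of 34 cells had 100 CPM of Hhex, so the share in this band says little about Sst. In late Ngn3-GFP+ cells of this band only 2 of 6 had it. It was found in 14 of 181 cells with 10 to 100 CPM of Sst (7.73%) and in 57 of 255 with less (22.4%), against 424 of the 1704 cells without an Sst count (24.9%). Intervals cover counting error only, since PCR copies without molecular identifiers are not independent molecules and cells share sets. Outside the late sort, the few cells with at least 1000 CPM of Sst had it too. These were both E14.5 Ngn3-GFPhigh cells (2680 and 1291 CPM of Hhex) and the E15.5 Pdx1-Cre; Rosa-RFP+ cell (472 CPM).

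**Figure D3:**
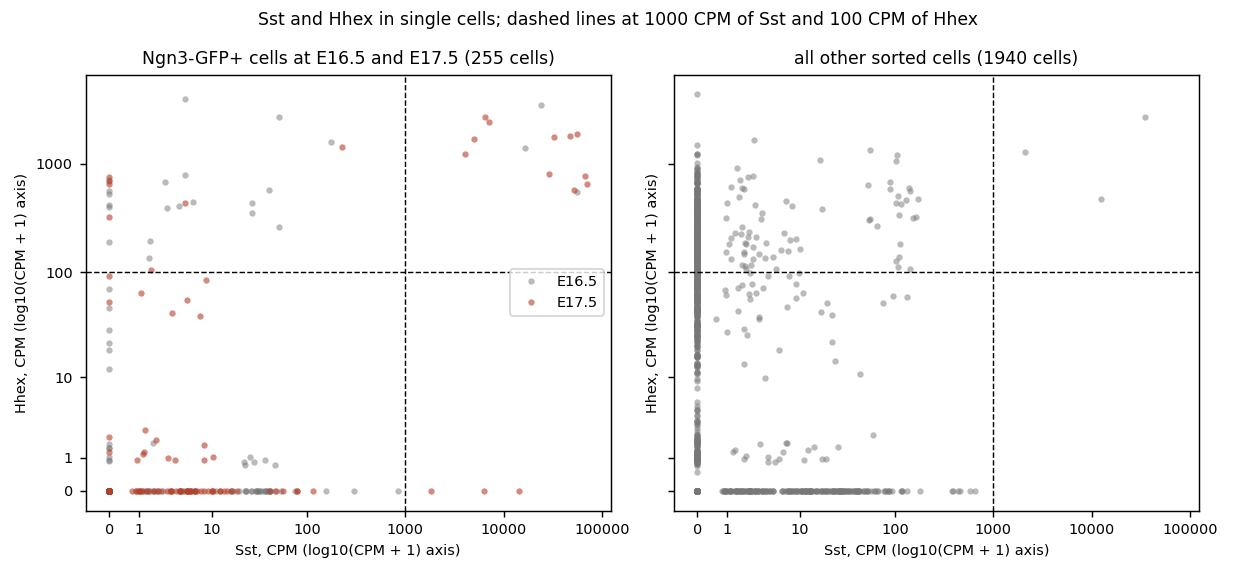
Sst against Hhex in single cells (CPM, log10(CPM + 1) axes), with late Ngn3-GFP+ cells on the left and all other sorted cells on the right. Points are cells and dashed lines mark 1000 CPM of Sst and 100 CPM of Hhex. Of the 20 cells right of the vertical line 17 lie above the horizontal one, whereas most cells with Hhex lie at the left edge without Sst.

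The pairing was compared within sets, whose cells share sort and day. In 5 late Ngn3-GFP+ sets at least 3 cells had 100 CPM of Sst. Hhex at 10 CPM was found in 3 of 3 such cells against 5 of 34 others in set 1 of E16.5. At E17.5 it was found in 3 of 4 against 5 of 30 in set 1, 4 of 6 against 2 of 34 in set 2, 3 of 3 against 5 of 19 in set 3 and 2 of 3 against 1 of 26 in set 4.

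The share was higher in Sst cells in 5 of 5 sets, by 68.2 percentage points on average (SD 11.2, range 58.3 to 85.3). The two-sided exact permutation test over sets gave p = 0.0625, the smallest that 5 sets allow. At a limit of 10 CPM for Sst the difference was 30.4 points and above 0 in 4 of 5 sets (exact permutation p = 0.125). These were not the same 5 sets: set 1 of E16.5, where all cells passed this limit, dropped out, and set 2 of E16.5 came in with 0 of 5 against 1 of 12 cells. The median leukocyte-list sum of a set was 0 to 120 CPM in the Sst cells and 7.52 to 50.3 CPM in the others. Single cells could differ: among the others in set 3 of E17.5, 1 cell with 10 CPM of Hhex carried leukocyte markers (sum 14523 CPM).

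**Figure D4:**
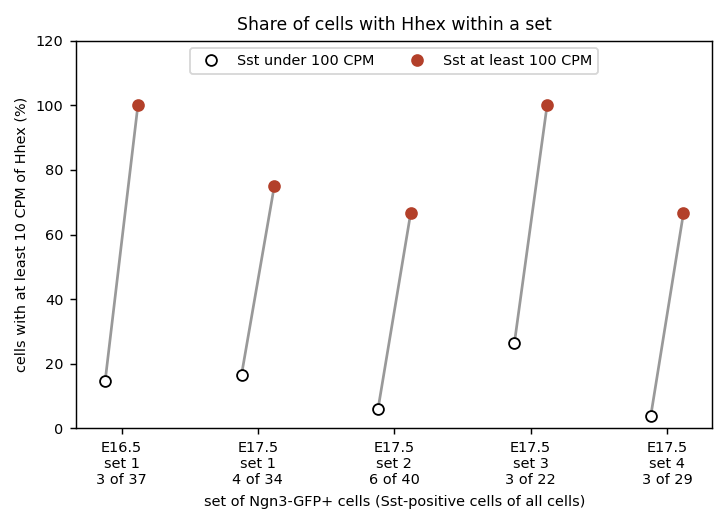
Share of cells with at least 10 CPM of Hhex (%) among cells with at least 100 CPM of Sst (filled) and under it (open) in the 5 late Ngn3-GFP+ sets that hold at least 3 Sst cells. Lines join the same set, and the number under a set gives its Sst cells of all its cells. The filled point lies above the open one in all 5 sets, by 58.3 to 85.3 percentage points.

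Summed over the same sets, with the set as a block, the difference of Hhex between Sst cells and the others was 5.58 ± 0.74 (log2, SE). It ranked the fifth of 12305 genes by fold and the eighth by p (4.43e-05 in edgeR), with an adjusted p of 0.0606. Besides Sst itself, which defined the cells, edgeR called 6 genes in this comparison, and 0.0569% of 12306 genes in all (0.0406% higher and 0.0163% lower), with 1227 genes at an unadjusted p under 0.05. DESeq2, limma, edgeR without the filter and edgeR with DESeq2's size factors all put Hhex past the threshold. With each of the 5 sets left out in turn, edgeR passed it in no fit (log2 5.01 to 6.15, edgeR adjusted p = 0.0670 to 0.372).

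The 4 genes called higher were the arginase gene Arg1 (4.07 ± 0.27, adjusted p = 0.00128), the surface glycoprotein gene Cd24a (3.13 ± 0.37, adjusted p = 0.0324), the sodium channel gene Scn3a (2.98 ± 0.32, adjusted p = 0.0247) and Sez6l (2.59 ± 0.30, adjusted p = 0.0306). The glucagon gene Gcg (-9.65 ± 0.78, adjusted p = 0.00364) and the acinar carboxypeptidase gene Cpa1 (-7.95 ± 0.38, adjusted p = 0.000155) were called lower. Gcg was the only member of the delta, alpha, beta, epsilon and PP cell lists to be called. The delta list had 0 of 4 tested members called, with a median log2 difference of 3.64 against -0.48 over all genes. The alpha list had 1 of 6 called lower, with a median of -6.96.

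The 20 Sst cells had other genes in common too. All had at least 1089 CPM of Iapp, the amylin gene, and at least 1343 CPM of Pcsk2, a convertase that cuts prohormones. All had 2000 to 25559 CPM of Rbp4, the retinol-binding protein gene known from delta cells, and at least 197 CPM of the islet factor gene Isl1. Pyy, the peptide YY gene, reached 1000 CPM in 15 of them, and Gcg stayed at or below 687 CPM (median 14.7). These genes were common in other late cells too. Whole late Ngn3-GFP+ sets held 12682 ± 7325 CPM of Iapp and 2298 ± 525 CPM of Pcsk2 (SD, n = 8). The medians of the 20 cells were 13579 and 2916 CPM. Of 194 late Ngn3-GFP+ cells with under 10 CPM of Hhex and under 100 CPM of Sst, 161 had 100 CPM of Isl1. Of the same 194 cells, 136 had 1000 CPM of Rbp4 and 80 had 1000 CPM of Pyy.

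Ghrl, the ghrelin gene of epsilon cells, did not pass 24.1 CPM in any of the 20. Among delta cell markers, Ffar4 ran from 31 to 392 CPM and the phosphatase gene Ptprz1 reached 100 CPM in 13 cells. The ghrelin receptor gene Ghsr reached 100 CPM in 3 cells and had no count in 14, and the gastrin receptor gene Cckbr had no count in any. Ptprz1 was present at 100 CPM in 9 of the 10 cells highest in Sst and in 4 of the other 10.

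Of the 3 Sst cells without Hhex, 2 stood apart by their insulin genes. They held 11586 and 13142 CPM of Ins1 and 41737 and 119051 CPM of Ins2, with 6360 and 1823 CPM of Sst. The other held 14496 CPM of Sst and 357 CPM of Ins1, less than the 783 CPM of Ins1 in 1 of the cells with Hhex. None of the 3 had a Ptprz1 count, and neither had 3 of the 17 with Hhex.

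Over all groups most Hhex cells carried no Sst: of the 531 cells with 100 CPM of Hhex, 424 had no Sst count. In the late Ngn3-GFP+ sort 41 of 255 cells had 100 CPM of Hhex, and only 10 of these had no Sst count. The 41 cells fell into different kinds. The 14 with at least 1000 CPM of Sst all had 1000 CPM of Rbp4, 11 had 1000 CPM of Pyy and none had 1000 CPM of Spp1, the osteopontin gene of duct cells. Of the 25 with under 100 CPM of Sst, 18 had 1000 CPM of Spp1 (median 6567 CPM), and 6 each had 1000 CPM of Rbp4 and of Pyy. The duct factor gene Sox9 reached 100 CPM in 20 of these 25 (median 558 CPM). It also did so in 13 of the 14 (median 250 CPM), so this level of Sox9 did not separate them. The other 2 of the 41 held 100 to 1000 CPM of Sst. A level of Hhex in this sort therefore mixes cells high in Spp1 and cells high in Sst. Of all Hhex counts in the series, 12.9% lay in the 20 Sst cells.

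The genes most like each gene in pattern were ranked by Spearman correlation over the summed CPM of all 82 sets, for 10146 genes with a mean of at least 10 CPM. For Sst these were Acyp2 (0.52), Glp1r, Cpt1c, Ins2, Scg2, Stk32a, Ins1 and Acvr1c (0.50), among them both insulin genes and the receptor gene of the incretin GLP-1. For Hhex they were Spp1 (0.81), Gpm6b, Cgnl1, Afm, Tinagl1, Sphk1, Notch2 and BC006965 (0.76). The sets differ in sort, day and number of cells, all of which enter these values. Over sets Sst and Hhex had a correlation of -0.09.

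Across cells within the 8 late sets, averaged over sets and ranked among 9529 genes, the correlation of Sst and Hhex was 0.18, which put Hhex 104th for Sst. By set it was 0.29, -0.23, -0.00 and 0.14 at E16.5 and 0.22, 0.32, 0.36 and 0.31 at E17.5. Among the genes most like Sst were Ppp1r14c (0.31), Spock3, Bambi, Cirbp, Wdr6, Pyy and Ly6h (0.24). Those most like Hhex were Cd24a (0.48), Rpl7, Hmgb3, Erich5, Ptma, Rps9, Rps29 and Ier2 (0.34), which include 3 ribosomal protein genes. Cells of 1 set share a sort and a day, and these correlations in sparse counts are weak.

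The genes around somatostatin were read in the late-against-early Ngn3-GFP+ comparison, where 8.29% of all genes were called higher late and 11.4% lower, and the median gene differed by -0.03 (log2). Of 7 delta cell genes 3 were higher late (Sst, Ptprz1 and Ffar4) and 1 was lower, with a median of 1.74. Ptprz1 was 19.3 ± 14.8 CPM late and 2.05 ± 3.13 CPM early (SD over sets). The lower one was Cckbr, at 6.80 ± 6.46 CPM early and 0.00511 ± 0.0145 CPM late. Rbp4, at 3290 ± 1276 CPM late and 3162 ± 884 CPM early, did not pass.

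Of the 4 Sst receptors tested, Sstr3 was higher late (42.2 ± 14.4 against 10.3 ± 3.69 CPM) and Sstr2 lower (22.7 ± 12 against 64.3 ± 39.3 CPM), and the list's median was 0.88. Of 6 genes that process prohormones, 3 were higher and none lower, against 8.29% and 11.4% of all genes, with a median of 1.30. Pcsk1 held 601 ± 209 CPM late and 177 ± 140 CPM early, Pcsk2 2298 ± 525 and 735 ± 179 CPM, and Pcsk1n 635 ± 213 and 374 ± 352 CPM.

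Of 8 factors known at the somatostatin promoter, Pdx1 (288 ± 71.3 CPM late, 39.9 ± 31.5 CPM early) and Pknox1 (50.7 ± 12.9 and 34.9 ± 5.06 CPM) were higher and none was lower. With a median of 0.21 and 2 of 8 called, this list lay close to the 19.7% called over all genes. Of 8 islet hormone genes 4 were higher late, namely Ins2, Ins1, Iapp and Ppy, and none was lower (median 3.44). The beta list had 9 of 9 tested members higher (median 4.70), the alpha list 1 of 7 lower (Slc38a5), the epsilon list 1 of 4 lower (Acsl1) and the PP list 1 of 3 higher (Ppy).

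Around Hhex, 2 of its 4 Tle co-repressor genes were higher late (list median 1.15), Tle2 (83.4 ± 13.3 against 19.5 ± 10.3 CPM) and Tle3 (95.3 ± 27.3 against 49.1 ± 7.18 CPM). Of 9 tested foregut and liver-bud factors, Gata6 and Foxa3 were higher, and Foxa1 and Gata4 lower (8.64 ± 10.1 CPM of Gata4 late against 56.2 ± 41.3 CPM early), with a list median of 0.17. Of 11 tested endocrine fate factors 6 were higher and none lower, led by Neurog3, Pax4 and Mnx1 (list median 1.56). These lists hold genes of other cell types, and the late and early sorts differ in their mix of cells.

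The droplet libraries, 2 channels of whole E14.5 pancreas without a sort, gave 3764 barcodes in library 1 (median 9672.5 molecules, counted by unique molecular identifiers or UMIs) and 7140 in library 2 (median 4875.5). They shared 37 barcode sequences, 0.983% and 0.518% of each. Library 1 held 5 Sst UMIs in 3 barcodes, and library 2 held 1205 in 79. Hhex was found in both, with 1286 UMIs in 527 barcodes of library 1 and 1579 in 901 barcodes of library 2. The labels give no difference between the channels, and with 1 library each no test was made.

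Cells with at least 1000 genes were clustered without Sst and Hhex, and clusters were called after marker lists, with 1868 of 3396 and 3098 of 6562 cells left unnamed. Among the named classes Hhex was highest in duct and trunk-like cells, at 89.0 and 116 UMIs per 1000000 UMIs of the class (CPM, exact Poisson intervals 82.6 to 95.9 and 105 to 129). Endothelium-like cells followed with 60.3 and 54 CPM, and acinar-like cells with 41 and 32.7. Endocrine progenitor-like cells held 15.8 and 30.1 CPM, leukocyte-like cells 22.8 and 26.8, and late endocrine precursor-like cells, a class of library 2 alone, 28.5. Mesothelium-like cells, used as background, held 0.606 and 1.2 CPM.

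This order depended on the classes. An unnamed cluster of 208 cells in library 2, with Sox9 and Neurog3 among its top genes, held 130 CPM of Hhex. With a minimum of 2000 genes per cell in place of 1000, library 2 had no duct and trunk-like class, and endocrine progenitor-like cells were its highest with 119 CPM of Hhex. In library 1 a late endocrine precursor-like class with 83.9 CPM then stood beside duct and trunk-like cells with 90.2.

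As shares of cells with a UMI, Hhex was found in 69.1% and 50.8% of duct and trunk-like cells (median 18856 and 7294 UMIs) against 0.798% and 0.823% of mesothelium-like cells (median 9779.5 and 5622.5 UMIs). The depths of the classes differ, and so do those of the libraries, so the shares are not ordered here.

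**Figure D5:**
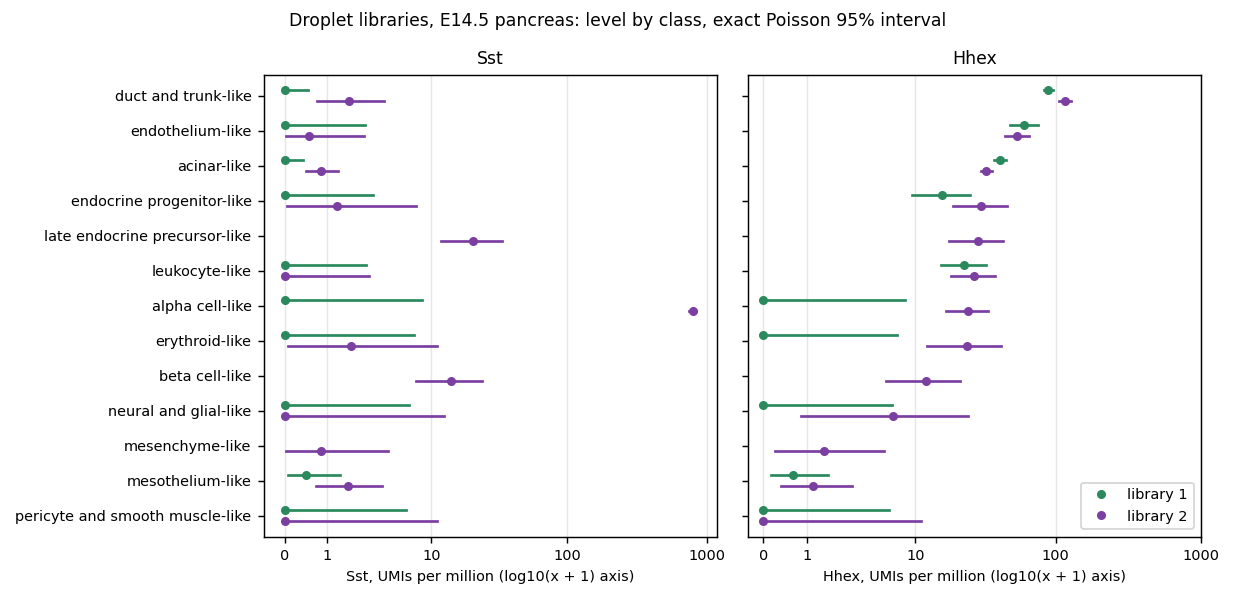
CPM in UMIs of Sst (left) and Hhex (right) by marker-named class in the droplet libraries of E14.5 pancreas, for cells with at least 1000 genes, on a log10(x + 1) axis. Points are the pooled level of a class in 1 library and lines its exact Poisson 95% interval, which covers counting error only. Among the named classes Sst stands at 789 CPM in alpha-like cells of library 2 and at 20.7 or lower elsewhere. Among the same classes Hhex is highest in duct and trunk-like cells of both libraries.

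Sst in library 2 lay in few cells, as in the sorted sets. The alpha-like cluster of 258 cells held 1105 Sst UMIs, 789 CPM, in 18 cells. In the whole library 18 cells had at least 3 Sst UMIs, up to 208, and 14 of them fell in the alpha-like cluster, 2 in an unnamed cluster and 1 each among late endocrine precursor-like and beta-like cells. They went against the cluster's name: 13 of the 14 had 0 or 1 Gcg UMI, and the other had 58.

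Hhex was seen in 16 of these 18 cells (88.9%, exact interval 65.3 to 98.6%). Within the alpha-like cluster it was seen in 12 of 14 Sst cells (85.7%) and in 5 of the other 244 (2.05%). All 18 had Pyy and Rbp4 UMIs. In library 1 only 1 cell had 3 Sst UMIs, with none of Hhex and 428 of Ins2, and the alpha-like cluster of 34 cells had no Sst UMI, which allows a share of cells with such a UMI of up to 8.82% (3 counts). With the minimum of 2000 genes, the level of Sst in library 2 was 115 CPM in alpha-like, 101 in late endocrine precursor-like and 50.1 in endocrine progenitor-like cells. Fewer Sst UMIs remained after this filter: these classes held 95, 70 and 151 of them, in 4, 4 and 11 cells.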

How the data were processed

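Sorted single cells were profiled with Smart-seq2 and whole E14.5 pancreas with 10x droplets. The authors deposited read counts per gene and cell, with HTSeq 0.6.0, TopHat2 2.1.0 and Bowtie2 as tools and mm10 as build, and droplet UMI counts from Cell Ranger 2.0.2, per the submitters' processing notes. The gene annotation is not given in the sources used here, and the deposited TPM values were not used. PCR copies were counted as reads in Smart-seq2, since it has no molecular identifiers.

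The 92 ERCC rows were left out and CPM taken over gene counts. Counts were summed per set (6 to 71 cells, at least 2838610 counts) and tested by the quasi-likelihood method of edgeR 4.0.16 (TMM, filterByExpr) in R 4.3.3, with adjusted p under 0.05 as the threshold. Related groups shared 1 fit. A cell counted as Sst-positive at 100 CPM and as Hhex-positive at 10 CPM. Sst-positive cells were compared with the others in the late Ngn3-GFP+ sets that held at least 3 of them. In simulated counts of the late-against-early comparison (19059 genes), 41.8%, 73.0% and 78.9% of genes changed by 2, 4 and 6 log2 units were recovered, with 3 false calls. Alternatives were DESeq2 1.42.0, limma 3.58.1, other filters, thresholds and scaling, and leaving out each set.

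Same-numbered sets were not treated as pairs in the main fits, and the labels state no shared litter, batch or day. Their correlations ran from -0.0128 to 0.1383. The highest were those of set 4 of the explants (0.1383) and set 1 of the E13.5 Ngn3-GFP sorts (0.136), so a pairing is not excluded. A replicate block was among the alternatives.

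Of the droplet barcodes, those with 1000 genes or more and a mitochondrial share up to 10% were kept in scanpy 1.11.5, Scrublet marked 0.294% and 2.99% as doublets, which were removed, and clusters (2000 variable genes without Sst and Hhex, 30 components, 15 neighbours, resolution 1) were named by at least 3 markers.

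Named genes were the members, up to 3 called genes a direction from each list, the genes called with Sst, and the 8 nearest in pattern, of which 1 is not reported here. The members and the gene lists were chosen with earlier results of these data known. Genes that overlap others or share reads with copies were not told apart. Gene positions are from GENCODE on GRCm38 and promoter letters from RefSeq.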

Additional observations from a re-analysis of the deposited data

Results flagged for a closer look

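In the 8 groups of 4 or more sets, the highest and the lowest set were compared with the rest for each gene, and a single set stood apart in 5 of these 16 checks. By chance such a check singles out a set in about 5% of checks, and most of these levels are near 0.

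In control explants, set 2 held 3.48 CPM of Hhex against 0 to 0.225 CPM in the other sets, and set 3 held 31.8 CPM of Sst against 2.02 to 5.38 CPM. In Ngn3-GFPlow cells of E14.5, set 2 held 0.831 CPM of Sst against 0 to 0.178 CPM. In Pdx1-Cre; Rosa-RFP+ cells, set 3 of E13.5 held 17.6 CPM of Sst against 0 to 0.585 CPM, and set 4 of E14.5 held 4.22 CPM against 0 to 0.108 CPM.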

How the results depend on the processing

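Of the log2 differences of the 2 genes under other settings, 246 kept their direction and side of the threshold, 23 passed newly, 8 no longer passed and 12 turned sign. Sst rested on few cells: 18 of the 82 sets had no Sst count, and 20 cells held 97.9% of all its counts. The cause of the changes was not tested.

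With DESeq2, Hhex passed for late minus early Ngn3-GFP+ (1.74), Ngn3-GFPhigh minus low (-3.51 at E13.5, -2.48 at E14.5, -4.84 at E15.5), Ins1-RFP+ minus Gcg-GFP+ (-4.47), Pdx1-GFP+ E11.5 minus E9.5 (4.30), Ptf1a-CreER minus Ngn3-Cre (2.23) and Sst-positive minus negative cells (5.70, adjusted p = 2.77e-22). With limma it passed at E14.5 (-3.66), E15.5 (-4.85), for Pdx1-GFP+ (3.85), Ptf1a-CreER (2.46) and Sst-positive cells (5.34), and Sst lost its Pdx1-Cre trend (0.48). Without the filter it passed for Pdx1-GFP+ (4.30), Ptf1a-CreER (2.20) and Sst-positive cells (5.51), and turned sign against Sox9-CreER (0.017). With DESeq2's size factors in edgeR it passed in Sst-positive cells (5.68). Without cells of other types it passed late minus early (4.01).

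With a replicate block, Hhex against Sox9-CreER was 0.080, and Sst no longer passed at E14.5 (9.06, adjusted p = 0.0526) or along Pdx1-Cre days (1.71, adjusted p = 0.337). Without the replicate block, Hhex in Sst-positive cells was 4.76 (adjusted p = 0.0248). Genes called between Sst-positive and negative cells were 7, and 986 with DESeq2, 12 without the filter, 309 with limma, 240 without the block, 2 at 10 CPM of Sst and 2 to 6 without 1 set.

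Leaving out 1 set in turn, Hhex ranged from 1.41 to 2.43 late minus early (passing without E10.5 set 1 or E16.5 set 2), -0.45 to 0.17 against Sox9-CreER, -3.72 to -1.95 at E14.5, -5.40 to 3.09 for Ins1-RFP+ minus Gcg-GFP+ and 1.87 to 2.75 for Ptf1a-CreER. Sst ranged from 7.36 to 14.6 against Sox9-CreER, -8.06 to 3.99 at E13.5, 6.30 to 11.7 at E14.5, 0.31 to 2.93 along Pdx1-Cre days, -2.97 to 0.63 in Pdx1-GFP+, -3.76 to 7.97 for Ptf1a-CreER and -0.65 to 2.27 with U0126. The difference in share of Hhex cells ranged from 63.9 to 70.6 points. An alternative added after seeing the data, the share of high-Sst cells with Hhex without E16.5 set 1 or without E17.5 set 2, gave 83.3% and 86.7%.

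Counts of called genes moved over 1.5 times in other comparisons too. At E13.5 edgeR called 1181 genes, DESeq2 2581, limma 1837, the block 732, the fit without other cell types 158 and the fits without 1 set 408 to 1284. At E14.5 these were 2857, with 4288 in DESeq2, 1173 with the block, 1783 without other types and 1571 to 2973 without 1 set. At E15.5 they were 1706, with 3662 in DESeq2, 2747 in limma, 792 without other types and 354 to 742 without 1 set. Late minus early gave 3757, and 2302 without other types. Against Sox9-CreER the count was 4764, and 3130 to 4981 without 1 set. Ins1-RFP+ minus Gcg-GFP+ gave 122, with 1124 in DESeq2, 410 in limma, 35 with the block and 7 to 77 without 1 set. The Pdx1-Cre trend gave 999, with 1531 in DESeq2 and 1826 without the filter. Pdx1-GFP+ gave 8, with 469 in DESeq2, 149 in limma, 92 without the filter and 0 with the block. Ptf1a-CreER minus Ngn3-Cre gave 135, with 1859 in DESeq2, 629 in limma, 565 without the filter, 21 with the block, 235 without other types and 0 to 815 without 1 set.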
